A study of Danio rerio with 40 samples.

Results

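Bidirectional piRNA clusters in zebrafish sperm are described here. piRNAs are small RNAs of the germ line that are bound by Piwi proteins and are known for silencing transposable elements. They are cut from long transcripts of genomic loci called clusters, some read from a single strand and some from both. Where both strands give piRNAs, sense and antisense piRNAs can be made from the same elements, the substrates of the amplification loop known as the ping-pong cycle. In a bidirectional cluster the strand of the piRNAs switches at a point inside the cluster, and in mouse testis such divergent loci are known to be transcribed outwards from a shared promoter.

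The clusters were chosen by the strand label that proTRAC, the cluster prediction program, wrote into the cluster name, and not by a difference between groups. proTRAC predicted the clusters and their labels from the reads of all libraries pooled, so membership depends on the reads of these data. Of 1434 rows of the piRNA table, 180 carried a label for both strands, and 175 were left after rows with identical values were counted once (1398 clusters in all). All were bidirectional. There were 103 minus-plus clusters, where the minus-strand part lies to the left of the plus-strand part so that the strands point outwards, and 72 plus-minus clusters, where they point inwards. The number of clusters labelled dual-strand, with both strands mixed along the locus, was 0, so the comparison of classes was made between the orientations. For comparison, the table held 691 single-strand predicted clusters and 532 clusters from a piRNA cluster database, which carry no strand label.

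The males were adult wild-type fish of the AB strain, and each was kept for 2 weeks in a High and in a Low male-male competition environment before sperm was taken. In High, 2 males shared a tank with 1 female, and in Low, 1 male was kept with 2 females. High-first males gave the groups High1 (first period, titles Ha) and then Low2 (second period, Hb), and Low-first males gave Low1 (La) and then High2 (Lb). The piRNA table holds 24 libraries of whole sperm samples, 6 in each group, out of 40 samples in the series. Group membership followed the sample titles, and a separate treatment tag named another group for 13 of the 24 libraries. Every High2 library carried a Low tag, and every Low2 library except library 3 carried a High2 tag. In Low1 libraries 6 and 9 differed, and in High1 the tag matched the title throughout. Comparisons with High2 or Low2 thus depend on the label used. Between a High-first and a Low-first group the order of treatment and the males themselves cannot be told apart. Within a line, as in High2 against Low1 or Low2 against High1, the treatment and the period cannot be told apart.

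The summed cluster counts were 5983071 to 56435023 reads per library, and libraries 2 and 3 of Low2 lay under 10000000 (7414024 and 5983071 reads). After division by the size factor of the library, 1 read counted as 7.485 and 16.0 normalised reads in these libraries. In the other libraries it counted as 0.378 to 1.51. Library 1 of High1 and library 3 of Low2 stood apart on the first principal component. Among the miRNAs of the same libraries, the gonad miRNA miR-202 (both arms) made up 0.0345 to 0.4% of the miRNA reads, the 3 blood cell markers 0.0108 to 0.0827% and the 3 muscle markers 0.012 to 0.112%. The 3 epithelial markers (miR-203a, miR-203b and miR-205) made up 0.488 to 5.72% and the 2 neural markers 0.265 to 1.41%, and in each marker set the ranges of the groups overlapped. No marker was at 0 throughout, and the part of other cells in the values below was not tested.

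The bidirectional clusters had a longer median length than the single-strand ones and a similar level per length. The median length was 14.7 kb for minus-plus clusters (range 4.99 to 158 kb), 11.9 kb for plus-minus clusters (4.62 to 63.0 kb), 11.0 kb for single-strand and 8.20 kb for database clusters. Clusters over 20 kb made up 29.1% of minus-plus, 18.1% of plus-minus and 9.84% of single-strand clusters. The level of a cluster is given in normalised reads (reads divided by the size factor of the library) per kb, as the mean of 24 libraries. Its median was 139 per kb in minus-plus clusters, 137 in plus-minus, 133 in single-strand and 125 in database clusters. The orientations had similar levels. Within a library, the ratio of the minus-plus median to the plus-minus median ran from 0.859 to 1.15 and was above 1 in 12 of 24 libraries.

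**Figure D1:**
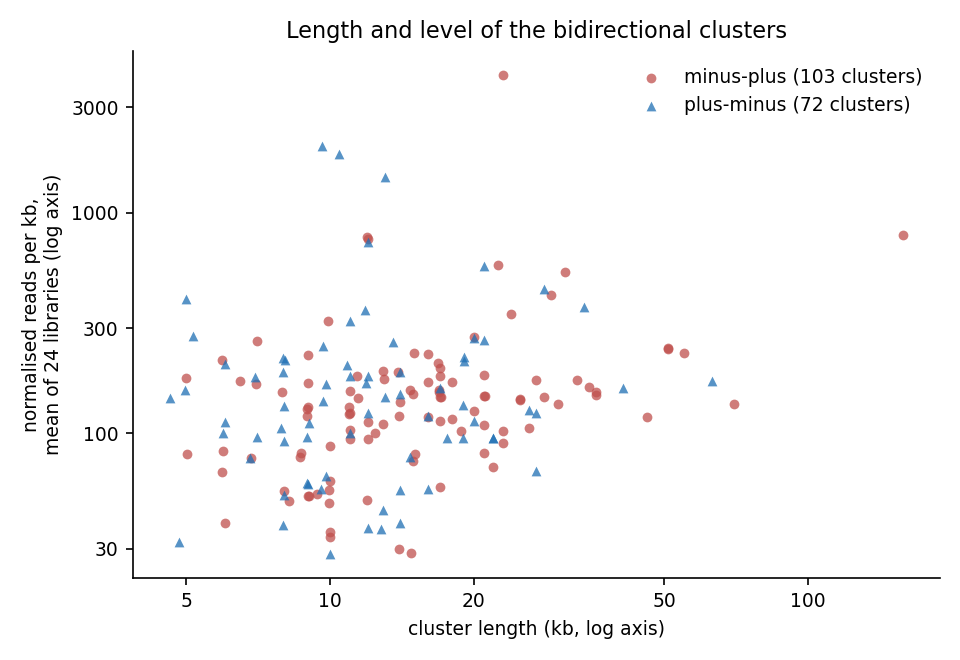
Length in kb against mean normalised reads per kb of 24 libraries, both on log axes, with a point for each of 103 minus-plus (circles) and 72 plus-minus clusters (triangles). Most clusters lie between 5 and 20 kb, and 82 of 175 lie between 100 and 200 reads per kb. The highest level is 4216 per kb in a minus-plus and 1995 in a plus-minus cluster.

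Every bidirectional cluster was detected in every library, though the clusters had been predicted from the pooled reads of the study. The lowest count was 3 reads, and 173 of 175 clusters had 10 or more reads in each library. The main test used no filter on low values, and the alternative without the lowest 25% of all clusters kept 138 of the 175. Bidirectional clusters were 12.5% of the clusters and 15.6% of the total cluster length, and they held 10 of the 100 clusters with the most reads per kb. They took 2.76 ± 0.864% (mean ± SD, n = 24) of the cluster reads of a library. The most abundant database cluster had a mean of 8.18e+06 normalised reads, against 124604 in the most abundant bidirectional cluster. The share of a class thus also moves with clusters outside it. Within the class, the 2 most abundant clusters held 29.6% of the normalised reads and the 10 most abundant 46.3%.

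The share of cluster reads did not separate the groups. For all bidirectional clusters it was 2.75 ± 0.884% in High1, 3.08 ± 0.816% in High2, 2.67 ± 0.669% in Low1 and 2.56 ± 1.17% in Low2 (mean ± SD, n = 6 each), differences that were smaller than the SD within any group. For minus-plus clusters the lowest, median and highest library had 0.972, 1.92 and 2.85% in High1, 1.74, 1.95 and 3.19% in High2, 1.12, 1.84 and 2.20% in Low1 and 0.900, 1.66 and 3.65% in Low2. For plus-minus clusters the values were 0.586, 0.722 and 1.21% in High1, 0.437, 0.831 and 1.38% in High2, 0.526, 0.998 and 1.25% in Low1 and 0.430, 0.788 and 0.951% in Low2. All 4 groups overlapped in both orientations.

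**Figure D2:**
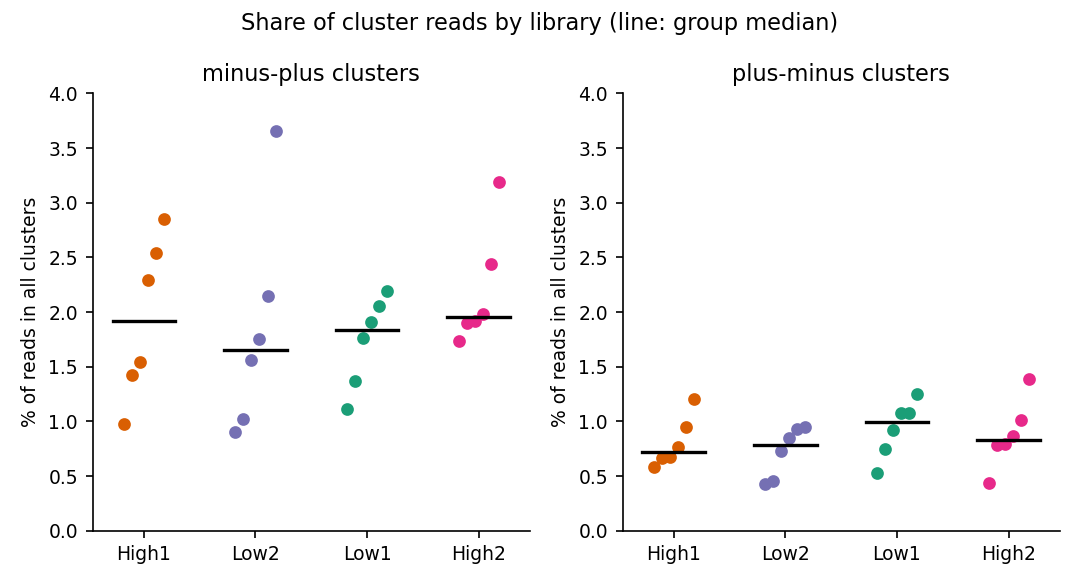
Percent of all cluster reads that fell in minus-plus (left) and plus-minus clusters (right), with a point for each library drawn from lowest to highest within its group and a line at the group median. The groups overlap in both panels, over 0.900 to 3.65% for minus-plus and 0.430 to 1.38% for plus-minus clusters.

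The clusters lay on all 25 chromosomes. Chromosome 4, whose long arm is known as a repeat-rich and gene-poor region of the zebrafish genome, held 45 of them with its alternative haplotypes counted (25.7%, against 14.9% of single-strand and 29.7% of database clusters), 23 minus-plus and 22 plus-minus, and chromosome 18 held 21, of which 15 were minus-plus. On the reference sequence of chromosome 4 all but 1 of the 44 bidirectional clusters started beyond 24 Mb. Their median level was 146 normalised reads per kb, against 138 in the other 130 clusters, and their median length 14.0 kb against 12.8 kb. Of the 175 clusters, 26 were annotated on alternative haplotype sequences of the GRCz11 assembly and 7 on unplaced scaffolds.

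The clusters with the most reads per length came from both orientations and varied strongly between libraries. The highest was the minus-plus cluster chr4:61779003-61802026 (23.0 kb, GRCz11), with 4216 normalised reads per kb. Its lowest, median and highest libraries had 10619, 57940 and 466142 normalised reads in High1, 19503, 67017 and 83106 in High2, 17916, 32129 and 65398 in Low1, and 18281, 68809 and 428026 in Low2. The highest values were in High1 and Low2 libraries, the groups overlapped, and the coefficient of variation (CV, SD as a percent of the mean over 24 libraries) was 135%. The plus-minus cluster chr18:15489533-15499995 (10.5 kb) followed with 1837 per kb, and its counterpart on an alternative haplotype of chromosome 18 (15483308-15492931 of CTG18_1_15) with 1995 per kb. Their values were near-equal (means of 19218 and 19196 normalised reads), and another row, on another haplotype, repeated the values of the first. A read that aligned to several of these loci may have been counted in each, and their sequences were not compared. In chr18:15489533-15499995 the group means were 16534 ± 6840 in High1, 17804 ± 7403 in High2, 21582 ± 6228 in Low1 and 20953 ± 7762 in Low2 (SD, n = 6), within the SD of each other. The plus-minus cluster chr20:11726007-11739018 (13.0 kb) had 1453 per kb and a CV of 91.6%.

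The longest cluster, the minus-plus chr8:45401002-45559004 (158 kb), had the most reads of all bidirectional clusters (124604 normalised reads on average, 789 per kb). Its lowest, median and highest libraries had 70815, 82022 and 100118 in High1, 69802, 134661 and 436058 in High2, 74600, 108546 and 159415 in Low1, and 71674, 100080 and 228997 in Low2. High1 was the narrowest group and overlapped with every other group. The contrast with the smallest unadjusted p was High2 against High1, with a log2 fold change of 0.87 ± 0.35 (SE, n = 6 against 6) and an adjusted p of 0.546 (limma). The shortest cluster was the plus-minus cluster at 39-4660 of the unplaced scaffold KN150669.1 (4.62 kb), with 145 per kb.

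The clusters with the fewest reads per length were the plus-minus cluster chr2:14916000-14926006 (28.5 per kb) and a minus-plus locus of chromosome 18, listed as chr18:8875011-8888978 (30.0 per kb) and on an alternative haplotype (8887120-8901878 of CTG18_2_2, 28.7 per kb). In chr2:14916000-14926006 the group means were 289 ± 73.4 in High1, 315 ± 39.2 in High2, 280 ± 36.4 in Low1 and 256 ± 64.9 in Low2 (SD, n = 6), and the groups overlapped.

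Most clusters varied moderately between libraries. The median CV was 23.0% in minus-plus and 21.7% in plus-minus clusters, against 23.2% in single-strand and 27.3% in database clusters. A CV under 15% was found in 26 bidirectional clusters and one over 50% in 13. The steadiest were the plus-minus cluster chr4:66459001-66522017 (63.0 kb, CV 7.78%), the minus-plus cluster chr22:27726005-27749031 (23.0 kb, 8.96%) and a minus-plus cluster on an alternative haplotype of chromosome 18 (29688062-29739014 of CTG18_1_31, 51.0 kb, 10.1%). In chr4:66459001-66522017 the group means were 10985 ± 981 in High1, 10711 ± 408 in High2, 10992 ± 987 in Low1 and 10915 ± 1071 normalised reads in Low2 (SD, n = 6). These means lay within 1 SD of each other.

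Some clusters on different chromosomes moved in step over the libraries. Across the 24 libraries the median correlation between log2 values of any 2 bidirectional clusters was 0.05 (Pearson's r), but 37 pairs exceeded 0.95, 25 of them between different chromosomes, and they joined 37 clusters into 14 sets. Of these pairs, 6 exceeded 0.999 and in each of the 6 a member lay on an alternative haplotype. The pairs share libraries, depth and, where sequences match, the reads themselves, so these values are descriptive. The sets and their members were chosen after their values were seen.

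A set of 5 clusters with high values in a few libraries comprised the plus-minus clusters chr20:11726007-11739018, chr16:9004063-9037990 and chr4:29483012-29511009, a plus-minus cluster on an alternative haplotype of chromosome 6 (23269000-23290027 of CTG6_1_10) and the minus-plus cluster chr18:33909054-33940037, with r from 0.927 to 0.992. In chr20:11726007-11739018 the lowest, median and highest libraries had 9135, 11287 and 48261 normalised reads in High1, 8015, 10944 and 16888 in High2, 11521, 19522 and 36370 in Low1, and 7084, 14983 and 86256 in Low2. In all 5 clusters library 3 of Low2 was the highest, at 3.49 to 7.06 times the median of the cluster, library 1 of High1 was the second and library 10 of Low1 the third. Libraries 5 and 6 of Low1 came next in chr20:11726007-11739018 (23237 and 28613) and chr16:9004063-9037990 (16772 and 16608), against medians of 12227 and 9003 over all libraries. Library 3 of Low2 was also the shallowest library (5983071 reads). Library 1 of High1 was the deepest (56435023 reads), and library 10 of Low1 had 31727802 reads. The part of depth in these values was not tested.

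**Figure D3:**
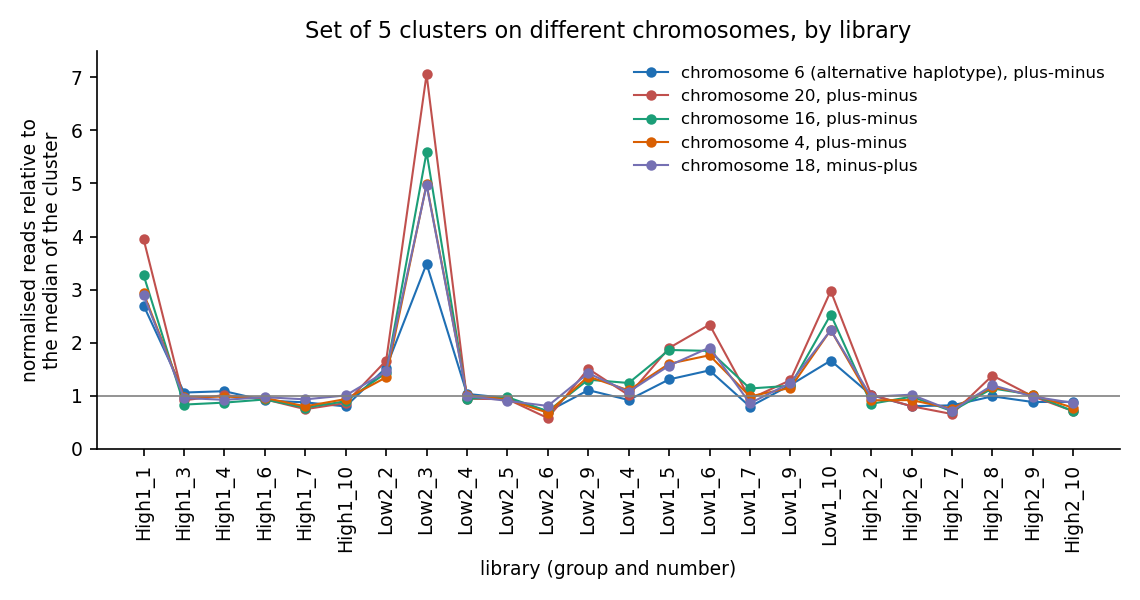
Normalised reads of the 5 clusters of the set, each divided by its own median over 24 libraries (linear axis, 1 at the grey line), by library. The lines run together over all libraries and peak in library 3 of Low2 (3.49 to 7.06 times the median), library 1 of High1 and library 10 of Low1.

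A second set joined 6 clusters with both orientations: the plus-minus clusters chr7:4847032-4859026 and 25168-37010 of scaffold KN150375.1 and the minus-plus clusters chr20:3087001-3109401, chr4:64007001-64028048 and chr5:51476029-51488017 with its copy on an alternative haplotype (r from 0.906 to 1.0). Library 4 of High1 was the highest in all 6, at 1.54 to 2.05 times the median of the cluster. Another set of 3 short minus-plus clusters, chr4:18038296-18046510, chr4:54420008-54428021 and chr2:19403003-19409027 (6.02 to 8.21 kb), also peaked in library 4 of High1, at 1.91 to 2.14 times the median. Their medians were 394, 436 and 237 normalised reads, in this order. Library 7 of High1 lay far below (53.8, 94.2 and 39.2), as did library 5 of Low2 (64.2, 116 and 54.0). In chr2:19403003-19409027 library 3 of Low2 had 48.1, where 1 read counted as 16.0. The part of these low values in the correlation was not tested.

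Some bidirectional clusters lay over database clusters. On the reference chromosomes 29 of 85 minus-plus clusters (34.1%) overlapped a database cluster by at least 1 base, against 9 of 57 plus-minus clusters (15.8%) and 99 of 574 single-strand clusters (17.2%). No test was made over loci, and the longer minus-plus clusters have more bases to overlap. None overlapped another predicted cluster, and the median distance to the nearest one was 77.0 kb. A shared position did not mean a shared profile. Reads of the shared stretch may be counted in both clusters, so r does not compare separate measurements. Over the 38 overlapping pairs r between the log2 values ranged from -0.34 to 1.0 with a median of 0.57, and was under 0.5 in 16 pairs and over 0.9 in 8. The plus-minus cluster chr7:4847032-4859026 and database cluster chr7:4847021-4853887 had r = 1.0 and similar means (8870 and 8494 normalised reads). The plus-minus cluster chr4:29483012-29511009 contained the whole of database cluster chr4:29485237-29508904, but its mean was 12585 against 3401 normalised reads and r was -0.34. The longest cluster, chr8:45401002-45559004, covered 43.0% of database cluster chr8:45430128-45730021, with 124604 against 62647 normalised reads and r = -0.12.

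The 4 groups were compared in 6 pairs, over both High against both Low groups, and for the difference of the High effect between the 2 periods. With limma on all 1398 clusters, 0 of 175 bidirectional clusters passed an adjusted p of 0.05 in each of these 8 comparisons, and the share called over all clusters was 0.00%. The effects were small. Over the 6 pairs of groups, the cluster log2 fold changes ran from -0.97 to 1.26, and at most 16 clusters exceeded 0.5 in either direction in any of them. With limma-voom on the recovered reads 0 were called in 7 comparisons and 1 in the difference between periods, and counts at an unadjusted p under 0.05 are given with each comparison below. A percent of all clusters beside such a count is the share of all 1398 clusters that passed in that direction. The comparisons share groups, so they are not independent of each other. Nor are the clusters, since 37 of the 175 form the pairs with r over 0.95 described above. The counts below can thus repeat a shared profile.

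In Low-first males, High2, always the second sample, was compared with Low1, always the first. At an unadjusted p under 0.05, 25 of 175 bidirectional clusters were lower in High2 (14.3%, against 9.80% of all clusters) and 3 were higher (1.71%, against 4.22% of all), and the smallest adjusted p was 0.178 (limma). The count of lower clusters depended on the setting, and it rose in some and fell in others. With only these groups in the fit 43 were lower (24.6%, against 221 of 1398 clusters) and 12 higher (190 of 1398). With limma-voom 31 were lower (17.7%, against 141 of 1398) and 5 higher (75 of 1398). Without library 1 of High1 and library 3 of Low2, 36 were lower (20.6%, against 181 of 1398) and 7 higher (125 of 1398). With each library centred on its median, 15 were lower (8.57%, against 7.65% of all) and 6 higher (3.43%, against 6.15%). With the pool as a covariate 11 were lower (6.29%, against 7.44% of all) and 1 higher (2.93% of all), and with groups from the treatment tag 8 were lower (4.57%, against 3.72% of all) and 1 higher (1.93% of all). The labels give each library a pool, and the paper describes pools of samples that shared a sequencing lane. Pool 4 held libraries 4, 5 and 6 of Low1 and library 6 of High2. Pool 5 held library 7 of Low1 and libraries 7, 9 and 10 of High2, so pool and group are partly confounded here. The median log2 fold change was -0.10 over the bidirectional clusters and 0.01 over all clusters. The drop was not particular to bidirectional clusters. In single-strand clusters the median level per kb, as a mean of 6 libraries, was 134 in Low1 and 124 in High2. It was 138 and 129 in minus-plus and 142 and 131 in plus-minus clusters. Database clusters went the other way (117 and 130), and the figure over all clusters holds both. These medians were not tested. Both orientations took part, with 14 of 103 minus-plus and 11 of 72 plus-minus clusters lower.

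The smallest p belonged to the plus-minus cluster chr22:2325020-2330026 (5.01 kb, 407 per kb). Its lowest, median and highest libraries had 1327, 1441 and 2200 normalised reads in High2 and 1913, 2569 and 3706 in Low1, so that 1 High2 library reached into the range of Low1. The log2 fold change was -0.75 ± 0.22 (SE, n = 6 against 6, limma adjusted p = 0.178). High1 (1483, 1784 and 3406) and Low2 (1145, 1857 and 2771) lay across both. Without library 1 of High1 and library 3 of Low2, which enter only through the shared variance, 4 bidirectional clusters were lower in High2 at an adjusted p under 0.05 (2.29%, against 3.58% of all clusters called): chr22:2325020-2330026, the minus-plus cluster chr14:13654000-13670019, the plus-minus cluster chr5:53865112-53875979 and the plus-minus cluster chr16:9004063-9037990 of the set of 5 described above. For chr22:2325020-2330026 the adjusted p was then 0.0297, and it ranged from 0.0297 to 0.776 over 13 alternative settings with a fold change of -0.76 to -0.64. The third named cluster, the plus-minus chr4:57283001-57302029, had a log2 fold change of -0.49 ± 0.15 (adjusted p = 0.181).

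In High-first males, Low2, always the second sample, was compared with High1, always the first. There were 0 bidirectional clusters higher (against 0.858% of all clusters) and 1 lower in Low2 (0.571%, against 1.72% of all) at an unadjusted p under 0.05. That cluster was the plus-minus cluster 28317021-28325014 of CTG1_1_28, an alternative haplotype of chromosome 1 (log2 fold change -0.32 ± 0.15, adjusted p = 0.999). The next, chr14:15480066-15494017 (minus-plus) and chr4:49625025-49636020 (plus-minus), had unadjusted p of 0.0899 and 0.137.

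In the first period, High1 was compared with Low1. At an unadjusted p under 0.05, 2 bidirectional clusters were higher in High1 (1.14%, against 2.72% of all clusters) and 9 lower (5.14%, against 3.43% of all). The minus-plus cluster chr5:747001-760987 (14.0 kb, 139 per kb) had the smallest p of the bidirectional clusters. Its lowest, median and highest libraries had 1983, 2330 and 3520 normalised reads in High1, 1458, 2027 and 3207 in Low2, 1120, 1437 and 1823 in Low1, and 1412, 1666 and 1855 in High2. Every High1 library was above every Low1 and every High2 library, while Low2 overlapped with all groups. The log2 fold change of High1 against Low1 was 0.74 ± 0.17 (SE, n = 6 against 6, limma adjusted p = 0.267). It was 0.53 ± 0.17 for Low2 against Low1 (adjusted p = 0.802) and -0.56 ± 0.17 for High2 against High1 (adjusted p = 0.463).

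For this cluster the High-first groups had the higher means in both periods. Over both periods it had 2326 ± 585 normalised reads in the High-first line and 1567 ± 234 in the Low-first line (SD, n = 12 libraries each), with the ranges overlapping. Each male was sampled in both periods, so the 12 libraries of a line can include 2 of the same male. The fit took the libraries as independent, and its SE and p-values do not allow for this. The fitted log2 difference of the lines was 0.54 ± 0.12 (SE). It is tested by the difference of the High minus Low effect between the 2 periods, which sums the 2 groups of each line in place of averaging them and was 1.09 ± 0.24 on the log2 scale (SE, adjusted p = 0.165, unadjusted p = 0.000118). The adjusted p ranged from 0.0196 to 1.0 over 12 alternative settings and was under 0.05 in 4 of them, with 1 bidirectional cluster called in each (0.0715% of all clusters), as when libraries 2 and 3 of Low2 were left out (1.27, adjusted p = 0.0196). With groups from the treatment tag the value was 0.26 (adjusted p = 1.0), while High against Low was then called for this cluster (log2 fold change 0.61, adjusted p = 0.0183), so the comparison it stands in depends on the label used.

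The plus-minus cluster chr11:37007002-37018889 (11.9 kb, 170 per kb) went the other way. Its lowest, median and highest libraries had 1316, 1682 and 2359 normalised reads in High1, 1407, 1771 and 2166 in Low2, 1823, 2646 and 3150 in Low1, and 1734, 1883 and 2459 in High2. Low1 held the highest libraries and overlapped with every group. The log2 fold change was -0.57 ± 0.16 for High1 against Low1 (adjusted p = 0.548) and -0.55 ± 0.16 for Low2 against Low1 (adjusted p = 0.802, limma). Without library 1 of High1 and library 3 of Low2, 3 clusters were called in High1 against Low1 (1.71%, against 0.715% of all clusters), and 26 were lower at an unadjusted p under 0.05 (14.9%, against 10.2% of all) and 6 higher (7.80% of all). The called clusters were this one (-0.67, adjusted p = 0.0388, over 13 settings 0.0388 to 0.562), chr5:747001-760987 (0.78, adjusted p = 0.0243, 0.0243 to 0.532) and chr16:9004063-9037990. The third named cluster of this comparison, the plus-minus chr4:63919001-63930996, had -0.37 ± 0.14 (adjusted p = 0.788).

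**Figure D4:**
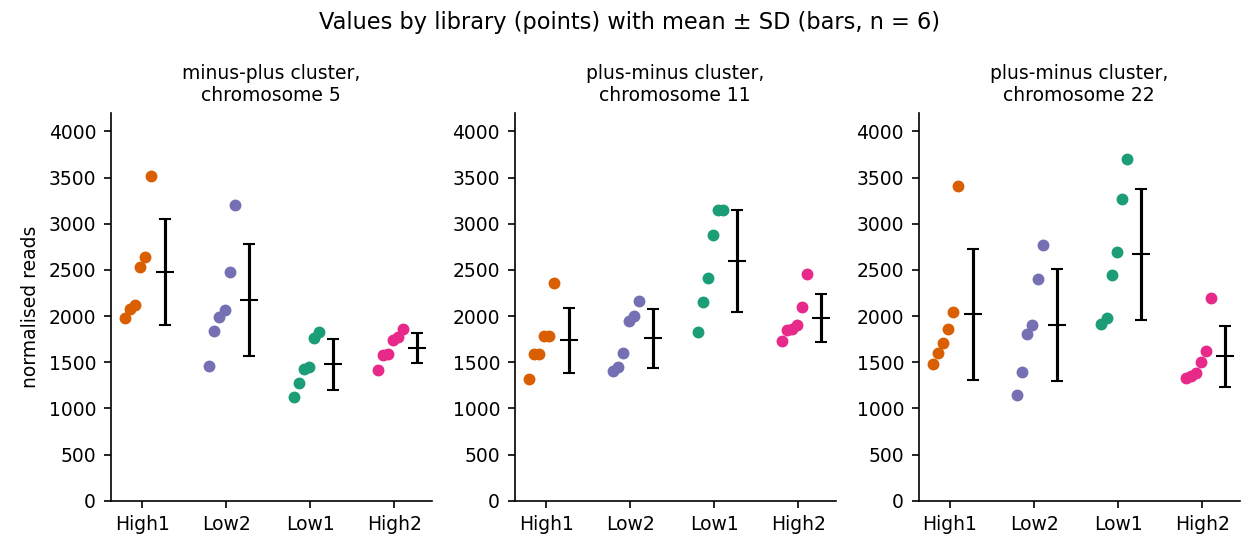
Normalised reads (linear axis from 0) of 3 clusters by group, with a point for each library drawn from lowest to highest and the mean ± SD of 6 libraries as a bar. High1 lies above Low1 and High2 in the chromosome 5 cluster, Low1 has the highest mean in the chromosome 11 and 22 clusters, and High2 has the lowest mean in the chromosome 22 cluster.

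In the second period, High2 was compared with Low2. At an unadjusted p under 0.05, 8 bidirectional clusters were higher (4.57%, against 5.58% of all clusters) and 9 lower in High2 (5.14%, against 4.58% of all). With centred libraries the split was 10 higher (7.87% of all) and 7 lower (3.36% of all), and without library 3 of Low2 it was 2 higher (3.36% of all) and 6 lower (2.22% of all). The minus-plus clusters chr4:29686006-29700687 and chr8:32000332-32008975 had log2 fold changes of -0.37 ± 0.12 and -0.45 ± 0.16, and the plus-minus cluster chr16:43674244-43683898 had 0.56 ± 0.21 (adjusted p = 0.406 for each, limma). In chr4:29686006-29700687 the lowest, median and highest libraries had 1670, 1951 and 2164 normalised reads in High2 and 2163, 2509 and 2986 in Low2, and the groups touched at 1 library. The fold changes of all 3 changed sign with groups from the treatment tag, which exchanges the names High2 and Low2 in most of these libraries.

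The groups of equal treatment were compared between periods. In High2 against High1, 7 clusters were higher (3.72% of all clusters) and 8 lower (4.36% of all) at an unadjusted p under 0.05, or 7 and 5 with centred libraries (5.44 and 2.93% of all). The plus-minus cluster chr18:32505005-32521009, 1 of 5 clusters whose values a second row repeated exactly, had 1846, 2108 and 2599 normalised reads in the lowest, median and highest libraries of High1 and 1461, 1603 and 1962 in those of High2 (log2 fold change -0.40 ± 0.11, adjusted p = 0.463). The minus-plus cluster chr2:34616009-34624986 had -0.68 ± 0.20 (adjusted p = 0.463). In Low2 against Low1, 2 clusters were higher (2.36% of all clusters) and 6 lower (2.36% of all), or 2 and 15 without library 1 of High1 and library 3 of Low2 (3.29 and 6.65% of all). They were led by the clusters of chromosomes 11 and 5 given above and by the minus-plus cluster chr20:12435000-12442940 (-0.41 ± 0.16, adjusted p = 0.937). Another repeated cluster, the minus-plus chr18:33209009-33221014, had group means of 1158 ± 70.2 in High1, 1086 ± 109 in High2, 1210 ± 316 in Low1 and 1089 ± 191 in Low2 (SD, n = 6).

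Over both periods, High was compared with Low. At an unadjusted p under 0.05, 18 bidirectional clusters were lower in High (10.3%, against 5.94% of all clusters) and 1 was higher (0.571%, against 2.79% of all), or 9 and 3 with centred libraries (3.65 and 4.01% of all). These counts rested on a few libraries and on the setting. Without library 3 of Low2 alone 7 were lower (4%, against 3.36% of all) and 0 higher (2.00% of all), while without it and library 1 of High1 25 were lower (14.3%, against 9.16% of all) and 7 higher (7.51% of all). With the pool as a covariate 7 were lower (4.08% of all) and 3 higher (2.65% of all), and with the treatment tag 2 were lower (2.22% of all) and 3 higher (3.08% of all). The shares over all clusters mix classes. In High1, High2, Low1 and Low2 the median level per kb (mean of 6 libraries) was 130, 124, 134 and 130 in single-strand clusters. It was 123, 130, 117 and 119 in database clusters. The minus-plus cluster chr14:13021007-13051030 (30.0 kb) led with -0.24 ± 0.09 (SE, n = 12 against 12, limma adjusted p = 0.556). Its lowest, median and highest libraries had 3442, 3746 and 4268 normalised reads in High1, 3076, 3541 and 4226 in High2, 3615, 4788 and 5922 in Low1, and 3399, 4140 and 4746 in Low2, with overlap between all groups. The plus-minus clusters chr5:53865112-53875979 (-0.43 ± 0.16) and 23686113-23695941 of CTG22_1_10, an alternative haplotype of chromosome 22 (-0.40 ± 0.15), had the same adjusted p. The High effect differed between the periods at an unadjusted p under 0.05 in 6 clusters in the positive direction (3.79% of all clusters) and 9 in the negative (4.29% of all).

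**Figure D5:**
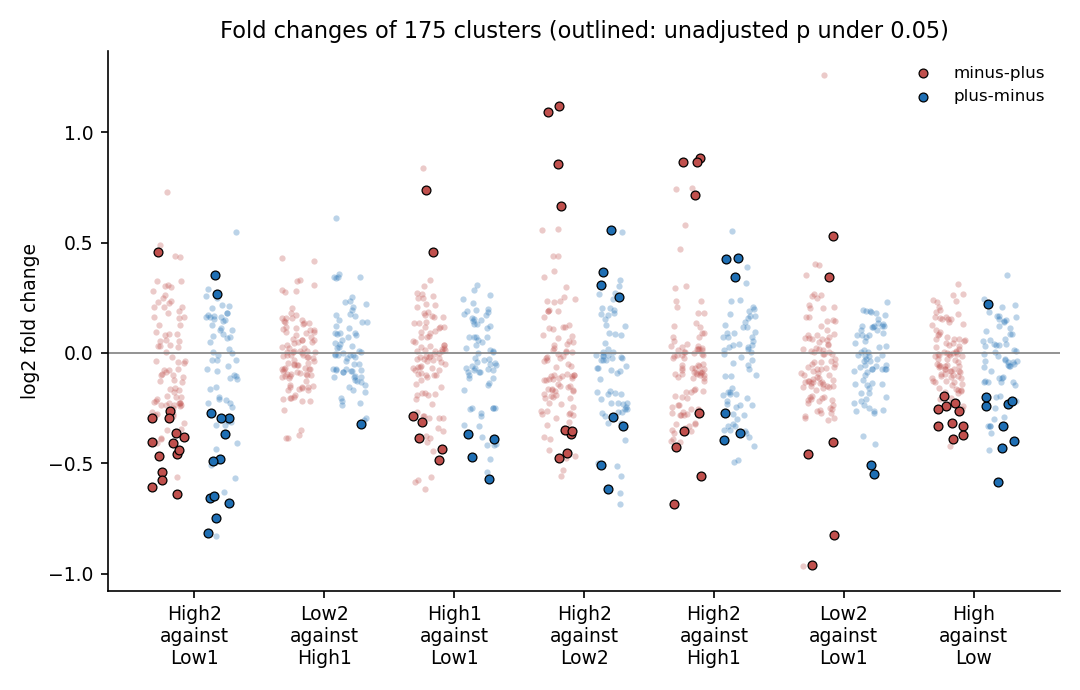
Log2 fold change (linear axis) of 103 minus-plus (red) and 72 plus-minus clusters (blue) in 7 comparisons, with a point for each cluster and an outline where the unadjusted p is under 0.05. None passes after adjustment, the outlined points of High2 against Low1 lie mostly below 0 (25 lower and 3 higher), and Low2 against High1 has 1 outlined point.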

How the data were processed

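Sperm small RNA libraries were aligned by the authors with PatMaN, without mismatch or gap, to database clusters and to clusters that proTRAC predicted from all libraries pooled, so that reads matching several clusters may be counted in each. The build in the cluster names is GRCz11, while the submitters' processing notes list GRCz10 and DESeq2. Both deposited tables are in log2 units (reads over a size factor for each library, with 4 added before the logarithm), a scale inferred from the numbers themselves, which gave whole reads in 100% of values under 100000 reads (tolerance 0.1). The reads carry no molecular identifiers, and the part of depth in the values was not tested.

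Rows with identical values were counted once. Tests on the log2 values used limma (version 3.58.1, R version 4.3.3; eBayes with trend, group as the factor, 24 libraries in one fit), two-sided, with Benjamini-Hochberg adjustment over 1398 clusters and a threshold of 0.05. On data simulated for these clusters the code was tested first. Group values are given as normalised reads, and a fold change is the difference between group means of log2 values. The p-values measure only the spread between these libraries, and libraries that may come from the same male were taken as independent. The miRNA table, on the same scale, served for the marker check alone. Summaries were made in Python 3.11.15.

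Clusters named with values were, by rule, the 5 with most and 3 with fewest reads per kb, the longest and shortest, the 3 with the smallest p of 7 comparisons, up to 3 with repeated rows and the 3 with the largest and smallest CV. Members, lists and rules were chosen with earlier results of these data known. Settings tried were other scalings, filters and pseudocounts, all rows, limma-voom, the pool, a replicate block, the treatment tag and left-out libraries. The genome sequence of these clusters was not used here.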

Additional observations from a re-analysis of the deposited data

Results flagged for a closer look

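Within each group of 6 libraries the log2 values of 32 named clusters and the share of reads were searched for a single library far from the others (Dixon's test at 95%). Of 132 groups tested, 12 held such a library. Chance flags about 1 in 20 of independent groups, but the count cannot be set against that rate. Some clusters were named for a large CV or a small p in these data, and some are copies of 1 locus. Library 1 of High1 stood out in 5 clusters, always on the high side: chr20:11726007-11739018 (15.56 against 13.60 in the next library), chr16:9004063-9037990 (14.85 against 13.03), chr14:13654000-13670019 (12.58 against 11.86), chr4:29686006-29700687 (11.70 against 11.14) and the haplotype cluster 23686113-23695941 of CTG22_1_10 (11.22 against 10.65). Library 3 of Low2, the shallowest, stood out in chr16:9004063-9037990 (15.62 against 13.66). Library 4 of High1 was high in both copies of the chromosome 18 locus with few reads, chr18:8875011-8888978 (9.10 against 8.15) and 8887120-8901878 of CTG18_2_2 (9.11 against 8.20). In High2, library 6 was high in chr4:63919001-63930996 (11.39 against 11.01), library 9 low in chr8:32000332-32008975 (8.95 against 9.16) and library 8 low in chr18:33209009-33221014 (9.79 against 10.07). In Low1, library 7 was low in the shortest cluster, on scaffold KN150669.1 (8.92 against 9.40).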

How the results depend on the processing

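The count of bidirectional clusters called was 0 in all 8 comparisons and stayed 0 without the trend, with centred libraries, without the lowest 25%, with the pool, with pseudocount 1 and with all rows. It became 3 in High2 against Low1 with only these groups in the fit (1.71%, against 3.65% of all clusters). These were chr22:2325020-2330026 and chr16:9004063-9037990, lower in High2 (log2 fold change -0.75 and -0.82), and chr18:33182019-33191981, higher in High2 (0.46). The last was named after its values were seen. Without library 1 of High1 and library 3 of Low2 the count was 4 in High2 against Low1, 3 in High1 against Low1 and 1 in the difference between the periods. For that difference it was also 1 with limma-voom, without library 3 of Low2 and without libraries 2 and 3 of Low2, an alternative chosen after the data were seen. With the treatment tag it was 1 in High against Low. In each setting with 1 call the share over all clusters was 0.0715%. Of the 22 fold changes with the smallest p in their comparison, 3 reversed, all with the treatment tag. They were chr4:29686006-29700687 (0.25), chr8:32000332-32008975 (0.29) and chr16:43674244-43683898 (-0.15) in High2 against Low2. That tag exchanges the names High2 and Low2 in most libraries of these groups, so the sign follows the label used. Outside these 22, other fold changes of named clusters also changed sign between settings. An example is chr5:747001-760987 in High2 against Low2 (-0.35 in the main fit, -0.53 to 0.48 over the settings). Without chromosome 4, whose clusters then also leave the total, the share of reads was 3.99% in High2 and 3.69% in Low1. These shares have another base than those given above. The other shares and the median levels per kb moved by less than the spread between libraries. The causes of the other changes were not tested. With the replicate block the counts were 0 in every comparison. Whether same-numbered samples of a line came from the same male is not stated. Over 7 same-numbered pairs the correlation of deviations ran from -0.311 to 0.346, and the block correlation was -0.055. So few pairs with correlations of both signs cannot decide it.

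Copies on haplotypes share reads, proTRAC drew the clusters from the same libraries, and libraries 2 and 3 of Low2, with the fewest reads, give the least precise values.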
